A study of Homo sapiens with 15 samples.

Results

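The CEACAM adhesion molecules examined here are CEACAM1, CEACAM5, CEACAM6, CEACAM7 and CEACAM19, 5 of the 43388 genes counted in each RNA-seq library. Members were taken by gene symbol, and the set was chosen by the counts of CEACAM6 in these same libraries, which were lower in hyperoxia and higher with all-trans retinoic acid (ATRA). The oxygen and ATRA differences of CEACAM6 are therefore given as a description with their error and without a test, and tests are given for the other members. The counts of 4 members were high enough to be fitted, and those of CEACAM7 were not.

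The libraries came from A549 cells, a human lung adenocarcinoma line with epithelial features, all of genotype WT. Cells received 1e-05 mM ATRA in ethanol, ethanol alone (vehicle) or neither for 24 h, and were then kept in 95% O2 (hyperoxia) or 21% O2 (normoxia) for 72 h. With vehicle there were 2 libraries at each oxygen level, with ATRA there were 3 at each, and without vehicle there were 2 at each, which makes 14 libraries in 6 groups. The study compared these groups to learn how ATRA alters the response of lung epithelial cells to high oxygen. This is 1 tumour cell line in culture, and no label says that the libraries of a group came from separate cultures, so p-values measure only the spread between these libraries, which may be technical. In bulk RNA, fewer cells expressing a gene and less of its RNA per cell cannot be told apart.

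CEACAM proteins are surface glycoproteins of the immunoglobulin superfamily that bind each other on neighbouring cells and serve as docking sites for several bacteria that colonise mucosa. CEACAM1 spans the membrane and its long cytoplasmic form carries inhibitory tyrosine motifs that recruit the phosphatases encoded by PTPN6 and PTPN11, whereas CEACAM5 (carcinoembryonic antigen), CEACAM6 and CEACAM7 are held in the membrane by a glycosylphosphatidylinositol (GPI) anchor. CEACAM6 is made by airway and alveolar epithelial cells and is often raised in carcinomas. CEACAM19 is a transmembrane member whose function is less well described.

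All members lie on the long arm of chromosome 19. In RefSeq for GRCh38.p14, CEACAM7 occupies chr19:41673303-41688270 on the minus strand, CEACAM5 chr19:41708626-41730519 and CEACAM6 chr19:41755530-41772211 on the plus strand, and CEACAM1 chr19:42507306-42528481 on the minus strand. CEACAM19 lies further along, at chr19:44665860-44684355 on the plus strand. The promoters of the first 4 are shown because these genes are close relatives whose levels in these libraries lay far apart. Each sequence is the 130 bases just before the RefSeq gene start, written 5′ to 3′ on the strand of the gene, and the capitals mark the hexamer that aligns with the E-box CACGTG of CEACAM6. E-boxes of this kind are bound by helix-loop-helix factors such as USF1 and USF2.

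CEACAM6, chr19:41755400-41755529, plus strand: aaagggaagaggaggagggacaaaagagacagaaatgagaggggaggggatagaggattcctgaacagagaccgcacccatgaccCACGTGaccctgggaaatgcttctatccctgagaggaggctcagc
CEACAM5, chr19:41708496-41708625, plus strand: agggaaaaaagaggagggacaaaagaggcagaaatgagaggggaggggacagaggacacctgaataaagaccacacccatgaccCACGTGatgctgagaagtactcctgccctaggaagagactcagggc
CEACAM7, chr19:41688271-41688400, minus strand: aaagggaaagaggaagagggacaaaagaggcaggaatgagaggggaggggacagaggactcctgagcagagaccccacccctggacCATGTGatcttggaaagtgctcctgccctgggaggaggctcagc
CEACAM1, chr19:42528482-42528611, minus strand: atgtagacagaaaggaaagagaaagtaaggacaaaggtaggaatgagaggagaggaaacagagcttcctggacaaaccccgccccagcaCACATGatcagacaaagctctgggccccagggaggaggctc

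Over the 250 bases before the gene start, the promoter of CEACAM7 was 79% identical to that of CEACAM6, that of CEACAM5 73.6% and that of CEACAM1 67.6%. The hexamer CACGTG was intact in CEACAM6 and CEACAM5 and differed by 1 base in CEACAM7 and in CEACAM1. Among 35116 promoters of 300 bases in the RefSeq table, 7.26% held CACGTG on either strand. Of the pair with the intact hexamer, CEACAM6 was the most abundant member in normoxia and CEACAM5 was close to the limit of counting. The GC box GGGCGG was present in CEACAM1 and CEACAM6 and in 45% of all promoters, and the nuclear receptor hexamer AGGTCA was present in CEACAM1, CEACAM5 and CEACAM7 and in 13.8% of all promoters. Exact direct repeats of AGGTCA spaced by 5, 2 or 1 bases, which receptors for retinoids can bind, were in none of the 4 windows. They were in 0.0057%, 0.00285% and 0.0228% of all promoters. Exact repeats are so rare that their absence cannot tell whether a retinoid element is present. Inexact repeats and more distant sequence were not searched.

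The libraries held between 2642377 and 5605072 counts on genes, so that 3 counts, taken as the limit of detection, corresponded to 0.528 to 1.14 CPM, the count scaled to a common library size. Hyperoxia without vehicle replicate 1 stood apart on the first principal component, which held 41.2% of the variance, and it had the fewest genes with a count, 12657 against up to 20108 in the other libraries. This library is kept in the fits of 14 libraries below. A value without it is also given for the oxygen differences without vehicle, the vehicle difference of CEACAM6 in hyperoxia and the correlations. The cells carried the epithelial keratins KRT8 and KRT18 in every library, while EPCAM, an epithelial adhesion molecule, reached at most 4.78 CPM and had no count in 3 libraries. Granulocytes also make CEACAM6. Of 9 granulocyte markers, 6 (MPO, CSF3R, FCGR3B, S100A8, S100A9 and S100A12) had no count in any library, and the summed level of all 9 did not exceed 0.389 CPM. With vehicle, 10 markers of leukocytes, endothelium and fibroblasts summed to 27.2 to 39.9 CPM in normoxia and 60.8 to 74.3 CPM in hyperoxia, where CD68, a lysosomal gene, was the 1 marker with a mean over 1 CPM. The collagen gene COL1A1 fell by 3.30 on the log2 scale and CD68 rose by 1.63 (adjusted p = 0.0202 and 2.25e-05, edgeR). With vehicle, the 7 epithelial markers summed to 16200 to 17700 CPM in normoxia and 9390 to 9530 CPM in hyperoxia, where 4 of them fell, KRT8 by 1.73 on the log2 scale (SE 0.17, adjusted p = 2.73e-07 in edgeR's quasi-likelihood test). With ATRA in hyperoxia the epithelial markers summed to 11400 to 14000 CPM, and against vehicle 4 of the 7 rose and 1 fell, KRT8 rising by 1.01 (SE 0.16, adjusted p = 0.000706, edgeR). The other 10 markers summed to 86.9 to 96.4 CPM there, and edgeR and DESeq2 each called 0 of the 4 tested, with 1 at an unadjusted p under 0.05. Of all genes, edgeR called 17.5% for oxygen with vehicle and 2.21% for ATRA in hyperoxia. The part of either marker list in the CEACAM levels was not tested.

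CEACAM6 was the most abundant CEACAM gene in normoxia and was much lower in hyperoxia. With vehicle, the normoxia libraries held 276 and 298 CPM and the hyperoxia libraries 18.8 and 28.2 CPM. The groups lay far apart, and their means were 287 ± 15.3 CPM and 23.5 ± 6.64 CPM (SD, n = 2 each). The fitted difference was -3.59 on the log2 scale (SE 0.21, 95% interval -4.01 to -3.16), or 12-fold lower in hyperoxia. In this comparison edgeR called 17.5% of all genes at an adjusted p under 0.05.

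The libraries without vehicle showed the same order. CEACAM6 was at 304 and 311 CPM in normoxia and at 7.57 and 23.4 CPM in hyperoxia, a fitted difference of -4.40 (SE 0.35). The lower of the hyperoxia values belongs to the library that stands apart, and without it the difference was -3.72. Without hyperoxia without vehicle replicate 2 it was -5.40.

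With ATRA, CEACAM6 was higher at both oxygen levels. In hyperoxia, the 3 ATRA libraries held 138, 105 and 89.2 CPM, each above both vehicle libraries, and in normoxia they held 479, 570 and 528 CPM. The ATRA means were 111 ± 25 CPM in hyperoxia and 525 ± 45.6 CPM in normoxia (SD, n = 3 each). The fitted ATRA difference was 2.22 (SE 0.19), or 4.65-fold, in hyperoxia and 0.87 (SE 0.16), or 1.83-fold, in normoxia. Without hyperoxia ATRA replicate 1, the highest of its group, the hyperoxia difference was 2.01. On the log2 scale the ATRA difference was thus larger in hyperoxia by 1.35 (SE 0.25), whereas the gap between the group means in CPM was larger in normoxia. These comparisons share libraries, the vehicle groups serving both the oxygen and the ATRA contrasts. ATRA-treated cells in hyperoxia stayed below every normoxia library, and the oxygen difference with ATRA was -2.24 (SE 0.15), or 4.72-fold lower.

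Ordered by level, CEACAM6 ran from normoxia with ATRA through normoxia without vehicle, normoxia with vehicle and hyperoxia with ATRA to hyperoxia with vehicle and hyperoxia without vehicle. Neighbours in this order that did not differ beyond their error were the control pairs. Between vehicle and no vehicle the difference was -0.10 in normoxia (SE 0.28, adjusted p = 1) and 0.71 in hyperoxia (SE 0.36, adjusted p = 0.554) in edgeR's quasi-likelihood test over 14 libraries, with 95% intervals of -0.69 to 0.49 and -0.05 to 1.47. In these comparisons 0 members of 4 passed, 0 had an unadjusted p under 0.05, DESeq2 called 0, and edgeR called 0% and 0.00652% of all genes. The hyperoxia value depended on the libraries without vehicle. Without the library that stands apart it was 0.032 (adjusted p = 1), and leaving out replicate 2 instead, so that the library standing apart was alone, gave 1.68 with an adjusted p of 0.000274 and moved the count of members called to 2. Over all alternatives the adjusted p ran from 0.000274 to 1.

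**Figure D1:**
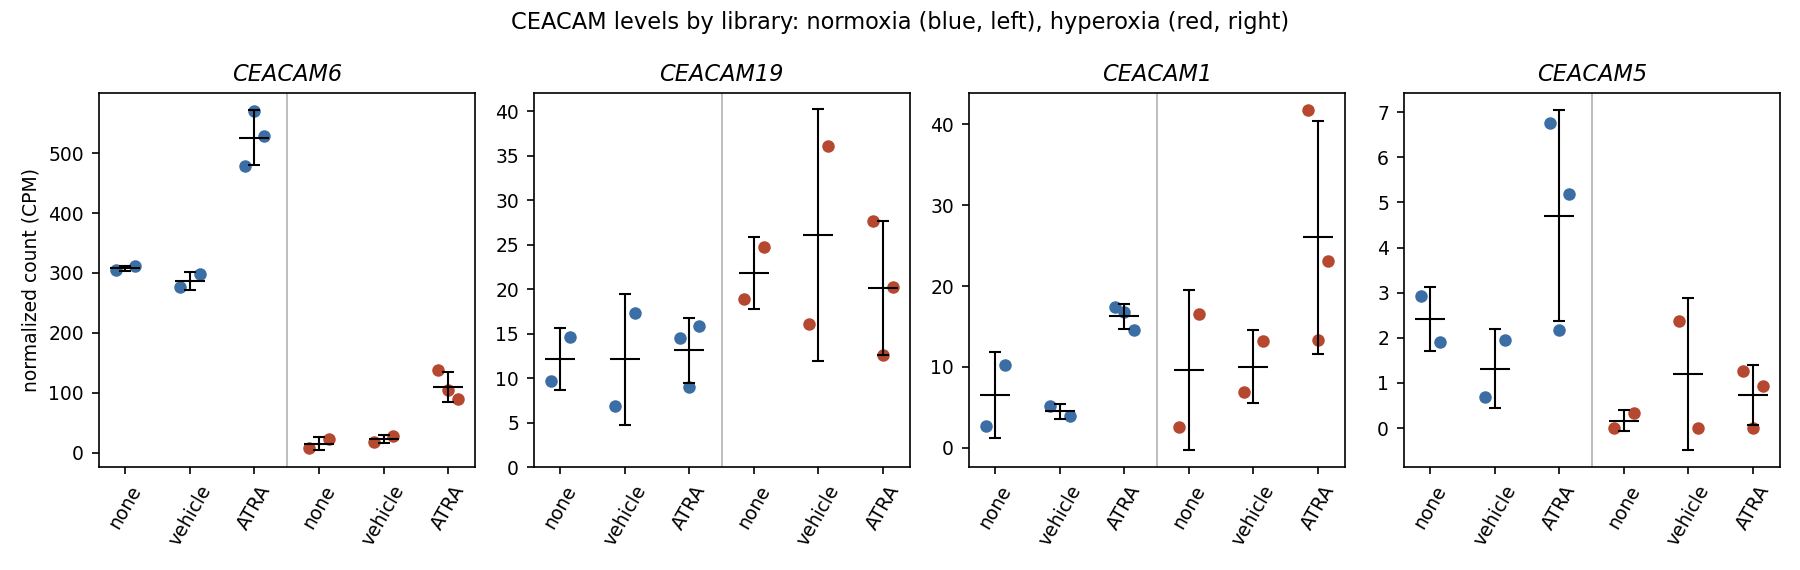
Normalized counts (CPM) of 4 CEACAM genes in each of 14 libraries, by oxygen level (blue normoxia, red hyperoxia) and pretreatment; points are libraries, horizontal bars the group means and error bars the SD (n = 2 or 3), and each panel has its own scale. CEACAM6 with vehicle sits at 276 and 298 CPM in normoxia against 18.8 and 28.2 CPM in hyperoxia. The lowest group mean of CEACAM1, 4.54 CPM, is in normoxia with vehicle, from libraries at 3.89 and 5.2 CPM. Single libraries without vehicle lie lower, at 2.59 CPM in hyperoxia and 2.72 CPM in normoxia.

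CEACAM1, the inhibitory transmembrane member, was expressed at low levels and was higher with ATRA. In normoxia, the vehicle libraries held 5.2 and 3.89 CPM (15 and 22 counts) and the ATRA libraries 17.4, 16.8 and 14.5 CPM (67, 54 and 56 counts), so that the groups did not overlap. CEACAM1 rose 3.64-fold, a log2 fold change of 1.87 (SE 0.46, adjusted p = 0.0447, edgeR's quasi-likelihood test), and was the only member of the 3 tested that passed, where 1.25% of all genes did. DESeq2 also called 1 member in this comparison.

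The size of this difference held but its call did not. It was between 1.57 and 2.05 over 19 alternatives, while the adjusted p ran from 0.00102 to 0.76. Leaving out any of the 3 normoxia ATRA libraries, either normoxia vehicle library or hyperoxia ATRA replicate 3 raised the adjusted p to between 0.0642 and 0.494. With all 14 libraries in the fit it was 0.76, and with 13, leaving out the library that stands apart, 0.0873.

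In hyperoxia, CEACAM1 was at 6.87 and 13.2 CPM with vehicle and at 41.7, 13.4 and 23.1 CPM with ATRA. The lowest ATRA library lay just above the higher vehicle library, and the ATRA libraries were spread more widely than in normoxia (26 ± 14.4 CPM against 16.3 ± 1.52 CPM, SD, n = 3). The difference of 1.38 (SE 0.40) did not pass in edgeR (adjusted p = 0.0857), where 2.21% of all genes did and 0 members of 3. At an unadjusted p under 0.05 there was 1 member, CEACAM1, and DESeq2 called it with an adjusted p of 0.0415. Without hyperoxia ATRA replicate 2, the lowest of the ATRA libraries, it was 1.65 with an adjusted p of 0.0223. Without hyperoxia ATRA replicate 1, which holds the highest value and lay far from the other libraries on the third principal component (7.79% of the variance), it was 0.85 with an adjusted p of 0.358. Over all alternatives the adjusted p ran from 0.00246 to 0.784.

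The ATRA effect averaged over both oxygen levels, a contrast added after the values had been seen, was 1.62 for CEACAM1 (SE 0.30, adjusted p = 0.00246, edgeR's quasi-likelihood test), with 3.38% of all genes called. A difference between the ATRA effects in hyperoxia and normoxia was not found for CEACAM1: it was -0.49 with a 95% interval of -1.73 to 0.75 (adjusted p = 0.927 in edgeR). Of the 3 members tested for that difference, edgeR and DESeq2 each called 0, and 0 had an unadjusted p under 0.05, where edgeR called 0.14% of all genes.

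The oxygen differences of CEACAM1 had the opposite sign to those of CEACAM6, and none passed the test. With vehicle, both hyperoxia libraries lay above both normoxia libraries, at 10 ± 4.48 CPM against 4.54 ± 0.927 CPM, a difference of 1.20 (SE 0.49, adjusted p = 0.102, edgeR). Without hyperoxia ATRA replicate 1 its adjusted p was 0.0472, without hyperoxia vehicle replicate 2 the difference was 0.60 with an adjusted p of 0.677, and over all alternatives the adjusted p ran from 0.0179 to 0.677. With ATRA the groups overlapped and the difference was 0.71 (SE 0.34, adjusted p = 0.152). Without vehicle the replicates disagreed by more than the groups did, at 2.59 and 16.6 CPM in hyperoxia and 2.72 and 10.3 CPM in normoxia, and the difference was 0.53 (SE 0.77, adjusted p = 0.671). Here it was 1.37 without the library that stands apart, and it turned to -1.34 when replicate 2 of that group was left out and to -0.17 without normoxia without vehicle replicate 1.

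In these oxygen comparisons, 0 of the 3 members tested passed with vehicle, with ATRA or without vehicle, by edgeR or by DESeq2, where edgeR called 17.5%, 22.7% and 15.2% of all genes. At an unadjusted p under 0.05 there were 2 members with vehicle (CEACAM1 and CEACAM19), 1 with ATRA (CEACAM5) and 0 without vehicle. CEACAM5 entered the fit with ATRA only through 2 normoxia ATRA libraries, so its p-value there is no independent test. Averaged over vehicle and ATRA, which was also added after the values were seen, CEACAM1 rose in hyperoxia by 0.95 (SE 0.30, adjusted p = 0.0179) and CEACAM19 by 0.85 (SE 0.29, adjusted p = 0.0271), with 32.5% of all genes called by edgeR.

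CEACAM19 had a higher mean in hyperoxia than in normoxia in each of the 3 treatments, and none of these differences was called. In hyperoxia it was at 16.1 and 36.1 CPM with vehicle, at 27.7, 12.6 and 20.2 CPM with ATRA and at 18.9 and 24.7 CPM without vehicle. In normoxia it was at 6.93 and 17.3 CPM, at 14.6, 9.03 and 15.8 CPM and at 9.72 and 14.6 CPM. The oxygen groups overlapped with vehicle and with ATRA and were separate without vehicle, where each held 2 libraries. For this and the other separations of members described here, the share of all genes that separate likewise was not counted. The differences were 1.06 with vehicle (SE 0.44, adjusted p = 0.109), 0.64 with ATRA (SE 0.37, adjusted p = 0.232) and 0.84 without vehicle (SE 0.52, adjusted p = 0.297) in edgeR. When only the vehicle groups were fitted the first of these gave an adjusted p of 0.0139, and without normoxia vehicle replicate 2, the higher of its pair, it was 1.90 with an adjusted p of 0.0447. Without hyperoxia vehicle replicate 2, the higher of its pair, it was 0.33 (adjusted p = 0.82), and without normoxia vehicle replicate 1 it was 0.58 (adjusted p = 0.621). Over all alternatives the adjusted p with vehicle ran from 0.0113 to 0.82, and without the library that stands apart the difference without vehicle was 1.02. No ATRA difference was found, at -0.36 in hyperoxia (SE 0.39, adjusted p = 0.762, 95% interval -1.17 to 0.45) and 0.07 in normoxia (SE 0.42, adjusted p = 0.99, 95% interval -0.81 to 0.94).

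CEACAM5, carcinoembryonic antigen, was near the limit of counting, with at most 26 counts in a library. The counts were 26, 7 and 20 in normoxia with ATRA, 15 and 8 in normoxia without vehicle and 2 and 11 in normoxia with vehicle. In hyperoxia they were 7, 0 and 4 with ATRA, 0 and 1 without vehicle and 9 and 0 with vehicle. In CPM the hyperoxia libraries lay below the normoxia libraries with ATRA and without vehicle and overlapped them with vehicle. With ATRA the highest hyperoxia count equalled the lowest normoxia count, 7, and the CPM of these libraries were 1.26 and 2.18.

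Summed over libraries and scaled to their size, CEACAM5 was 5.49-fold higher in normoxia than in hyperoxia with ATRA (53 against 11 counts, exact 95% interval 2.83 to 11.7). Without vehicle the ratio was 20 from 23 counts against 1 (interval 3.24 to 823), with the library that stands apart included. That library held 0 counts, so the size of this ratio rests on it. Its replicate held the 1 count, 0.325 CPM, against 2.92 and 1.91 CPM in normoxia without vehicle. With vehicle the ratio was 1.6 from 13 against 9 (interval 0.633 to 4.24). These intervals cover counting error only. With the spread between libraries included, none passed in edgeR: the differences were -2.50 with ATRA (SE 1.09, adjusted p = 0.107), -3.91 without vehicle (SE 1.87, adjusted p = 0.173, and -2.79 without the library that stands apart) and -0.32 with vehicle (SE 1.33, adjusted p = 0.914). The ATRA difference in normoxia, where all 3 ATRA libraries lay above both vehicle libraries, was 1.75 (SE 1.19, adjusted p = 0.79). CEACAM5 passed the low-count filter of the 10-library fit only through normoxia ATRA replicates 1 and 3, at 6.76 and 5.19 CPM. The comparisons that include normoxia with ATRA therefore describe the counts that admitted the gene, and their p-values are no independent test.

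CEACAM7, a member found mainly in colon epithelium, had counts in 3 of the 14 libraries: 4 in a normoxia ATRA library, 3 in a hyperoxia vehicle library and 2 in a normoxia library without vehicle. At this depth no difference was detectable. The other CEACAM genes were also nearly silent. Of 7 further members of the branch only CEACAM16 passed the filter, with at most 16 counts in a library, and edgeR did not call it in any comparison. Of 10 pregnancy-specific glycoprotein genes, a related branch expressed in placenta, only PSG4 passed, and it was not called either.

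**Figure D2:**
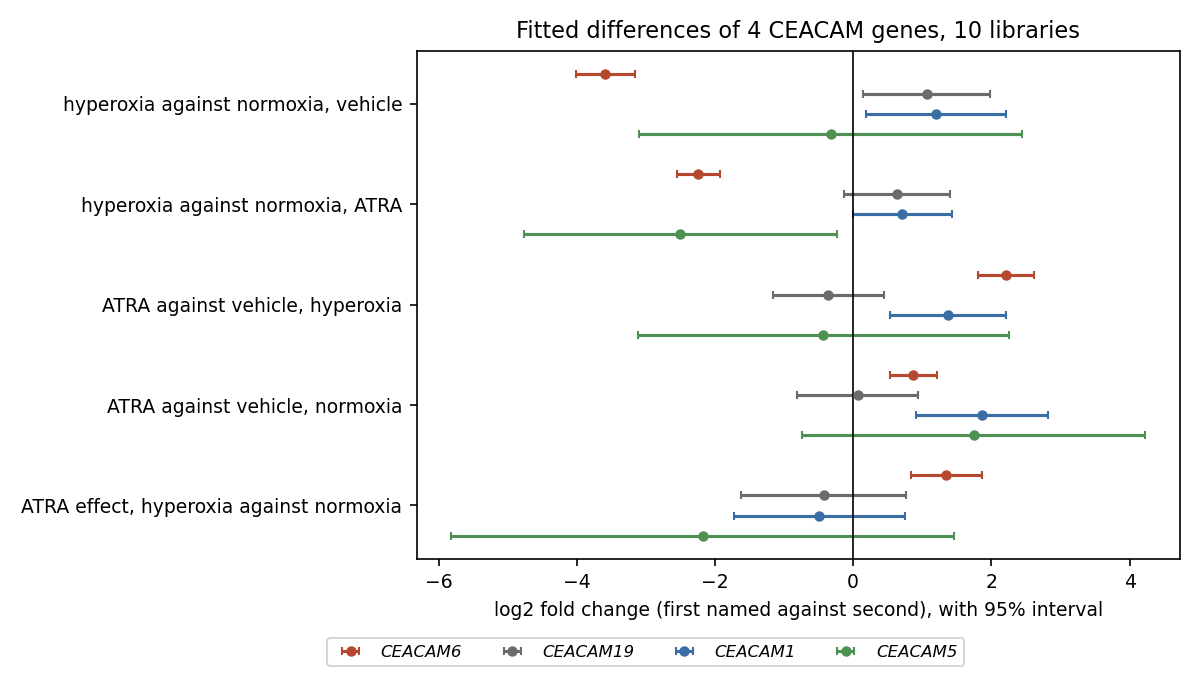
Fitted log2 fold changes of 4 CEACAM genes in 5 comparisons over 10 libraries (horizontal axis, first-named group against second; points are estimates and bars 95% intervals). CEACAM6 lies at -3.59 for oxygen with vehicle and at 2.22 for ATRA in hyperoxia, while CEACAM1 and CEACAM19 lie at 1.20 and 1.06 for oxygen with vehicle and the bars of CEACAM5 are the widest.

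The make-up of the CEACAM transcripts differed between the groups. CEACAM6 held 92.7 to 95.4% of all CEACAM counts in normoxia with vehicle and 36.1 to 41.8% in hyperoxia with vehicle. With ATRA in hyperoxia the share was 66.1 to 76.5%, between these. In hyperoxia with vehicle replicate 1 the share of 41.8% rested on 71 of 170 counts (95% Wilson interval 34.6 to 49.3%, counting error of that library only). These shares restate the CEACAM6 counts by which the set was chosen and are given as a description. The share without vehicle was 26% in the hyperoxia library that stands apart, 36% in its replicate and 91.9 to 94.8% in normoxia, and that with ATRA in normoxia was 91.9 to 95%.

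Levels of different genes were compared per kilobase of their canonical transcript. On that scale CEACAM6 was at 111 ± 5.89 CPM per kb in normoxia with vehicle, followed by CEACAM19 at 5.48 ± 3.32, CEACAM1 at 1.3 ± 0.265 and CEACAM5 at 0.377 ± 0.253 (SD, n = 2). In hyperoxia with vehicle CEACAM19, at 11.8 ± 6.37 CPM per kb, and CEACAM6, at 9.05 ± 2.56, lay within their spread of each other.

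**Figure D3:**
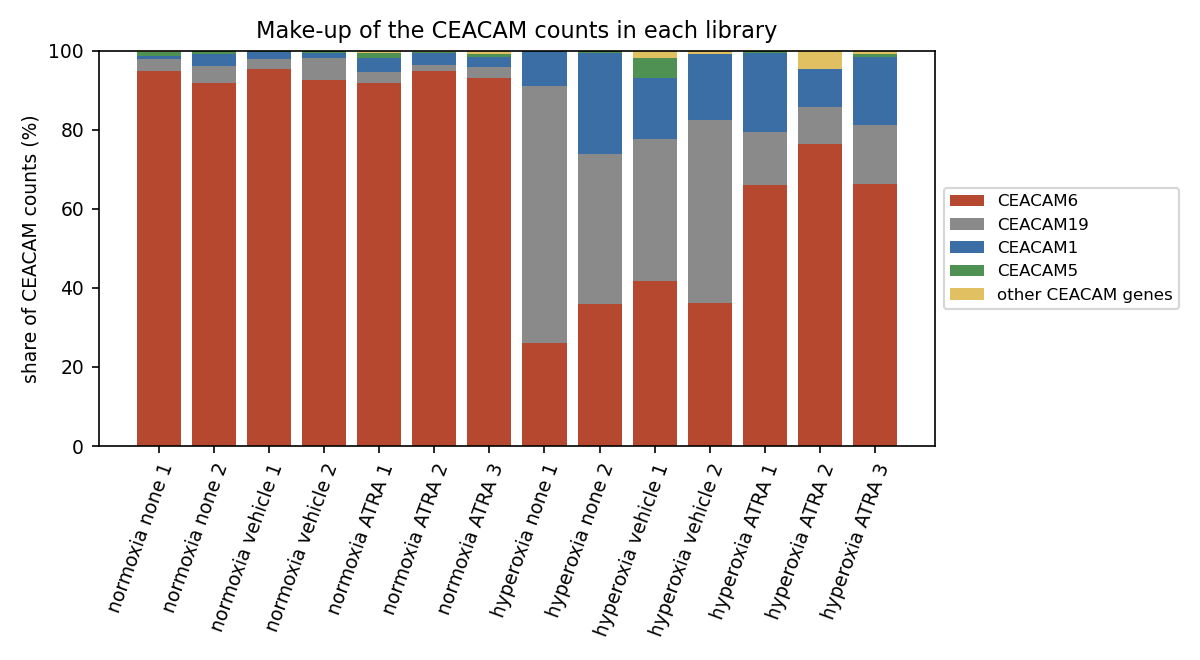
Make-up of the CEACAM counts in each of 14 libraries (stacked bars; vertical axis, percent of the counts on all CEACAM genes; horizontal axis, libraries by oxygen level, pretreatment and replicate). CEACAM6 takes 91.9 to 95.4% in the normoxia libraries, 26 to 41.8% in hyperoxia without ATRA and 66.1 to 76.5% in hyperoxia with ATRA, where CEACAM19 and CEACAM1 make up most of the rest.

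Across the 14 libraries, which share the oxygen and ATRA groups, CEACAM5 and CEACAM6 had a Pearson r of 0.694 (Spearman rho 0.678) on log2 CPM, CEACAM6 and CEACAM19 had -0.558 (rho -0.596), and CEACAM1 and CEACAM6 had 0.17 (rho 0.231). Without the library that stands apart the r values were 0.615, -0.603 and -0.125. These describe the libraries and were not tested. The gene most like CEACAM6 among 15338 was LOC112268252, an annotated long non-coding RNA (r = 0.987). It was followed by GDA, which encodes guanine deaminase (0.97), CALR, the endoplasmic reticulum chaperone calreticulin (0.969), the kinase gene MAP2K6 (0.967) and BCAS1 (0.965). ITGB5, an integrin subunit (0.963), and the keratin gene KRT8 (0.962) came next. In 13 libraries, without the one that stands apart, r for these 7 genes was between 0.951 and 0.988. The amplitude of these genes varied, since BCAS1 differed by -3.39 between hyperoxia and normoxia with vehicle and CALR by -0.97. For CEACAM1 the most similar genes were ZMYND15 (0.908), BHLHE40 (0.876) and PDK2 (0.863). For CEACAM5 they were EPCAM (0.897), FAM120B (0.869) and PCDHB5 (0.866), and for CEACAM19 LAMTOR4 (0.899), ZNF497 (0.873) and DUSP8 (0.856). In the 13 libraries r was 0.821 to 0.881 for the CEACAM1 genes, 0.843 to 0.877 for the CEACAM5 genes and 0.86 to 0.931 for the CEACAM19 genes. Like CEACAM5, EPCAM was near the limit of counting, at most 4.78 CPM. Group means were 0.487 to 4.03 CPM for PCDHB5 and 0.438 to 3.62 CPM for ZMYND15.

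**Figure D4:**
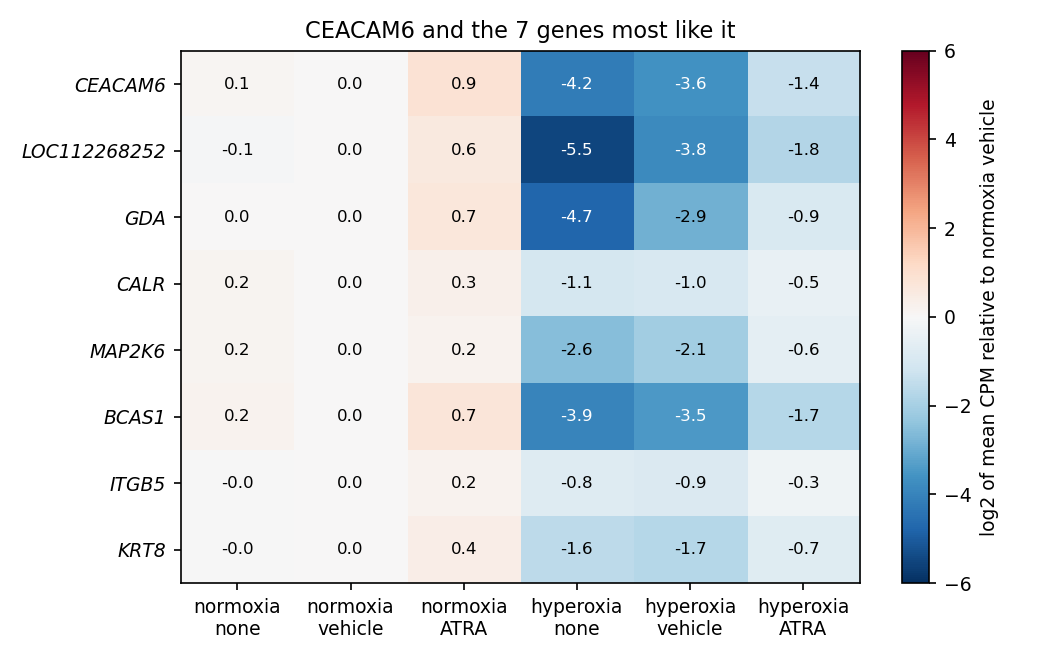
Group levels of CEACAM6 and the 7 genes with the most similar pattern over 14 libraries (colour and number, log2 of the mean CPM relative to normoxia with vehicle; columns are the 6 groups, rows the genes). All 8 rows are lower in the 3 hyperoxia columns and least so with ATRA; CEACAM6 had a mean of 23.5 CPM in hyperoxia with vehicle and 111 CPM in hyperoxia with ATRA.

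LOC112268252 lies inside CEACAM6, at chr19:41756768-41759361, and its span covers 192 of the 2956 exonic bases of CEACAM6. It held 15.5% as many counts as CEACAM6. With vehicle it was at 57.5 and 46 CPM in normoxia and 1.59 and 5.63 CPM in hyperoxia, a difference of -3.72 (SE 0.38). In hyperoxia it was higher with ATRA by 2.0 (SE 0.38). No test is given for LOC112268252, because it was named for following CEACAM6, by which the set was chosen. How the counting treated strand and overlapping genes is not given in the sources used here, so whether reads of CEACAM6 precursor RNA enter this count was not tested. LIPE-AS1, a non-coding gene antisense to CEACAM1 and spanning it, had 5.12% of the counts of CEACAM1, and LOC105372407, another non-coding gene inside it, had 0.874%. The 3′ end of PVR, a nectin-like adhesion molecule that held 1040% as many counts as CEACAM19, overlaps the first 303 bases of CEACAM19 on the same strand, and PVR was lower in hyperoxia with vehicle (log2 fold change -0.52, adjusted p = 0.0175, edgeR), opposite to the sign of CEACAM19.

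Reads could also be shared between members. Of the windows of 50 bases in the canonical transcript, 8.25% in CEACAM6, 6.26% in CEACAM5 and 4.18% in CEACAM1 recur exactly in the transcripts of other genes, among them CEACAM3, CEACAM8 and each other, while none do in CEACAM7 and CEACAM19. The low counts of CEACAM5 are the most exposed to this, because CEACAM6 held many times more counts, and the part of misplaced reads in its values was not tested.

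The stretch of chromosome 19 between CEACAM7 and CEACAM1 holds 28 other counted genes, of which 19 were tested. In hyperoxia with vehicle 5 of them fell and 0 rose, with a median of -0.48 against 0.01 over all genes tested, 17.5% of which were called. Among those that fell were LOC112268252, PAFAH1B3 by 1.74 (adjusted p = 0.000539), PRR19 by 1.38 (adjusted p = 0.014) and RPS19, a ribosomal protein gene, by 0.64 (adjusted p = 0.00999), all on the log2 scale. For oxygen with ATRA the direction was mixed: 4 of the 19 rose and 1, LOC112268252, fell by 2.33 (SE 0.26). The median was 0.01, and 22.7% of all genes were called. With ATRA in hyperoxia 2 of the 19 rose, LOC112268252 among them, the median was 0.26 and 2.21% of all genes were called. With ATRA in normoxia edgeR and DESeq2 each called 0 of the 19, and 1 had an unadjusted p under 0.05. There edgeR called 1.25% of all genes. Of these neighbours, LOC112268252 alone came near the size of the CEACAM6 difference in oxygen with vehicle. It is included in these counts although its level followed that of CEACAM6, by which the set was chosen.

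**Figure D5:**
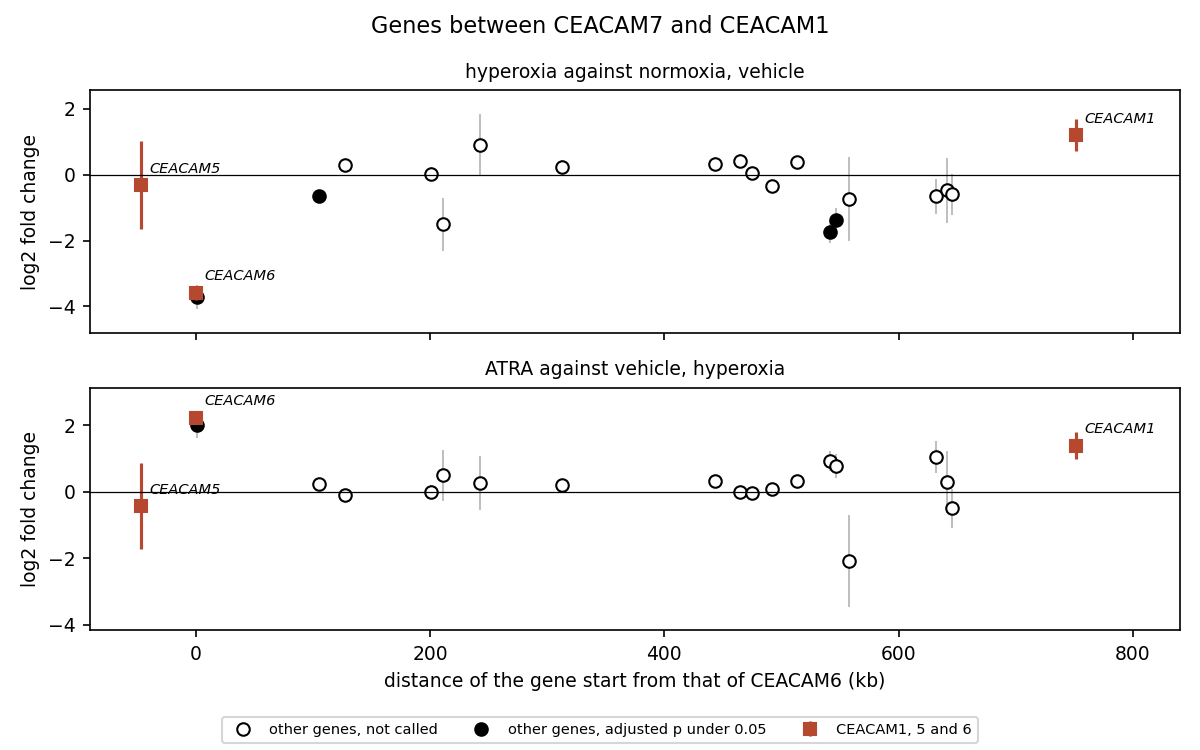
Log2 fold changes of CEACAM5, CEACAM6 and CEACAM1 (squares) and of 18 of the 19 tested genes between CEACAM7 and CEACAM1 (circles, filled where the adjusted p is under 0.05), by distance of the gene start from that of CEACAM6 in kb; bars are standard errors. For oxygen with vehicle CEACAM6 at -3.59 and LOC112268252 at -3.72 stand below the other neighbours, which lie between -1.74 and 0.91.

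Among 20 genes for signalling partners of CEACAM proteins, 17 were tested, and 5 passed for oxygen with vehicle, where 17.5% of all genes did. PTPN6, the phosphatase that binds the cytoplasmic tail of CEACAM1, fell by 2.34 (SE 0.32, adjusted p = 1.5e-05), and CALM3, a calmodulin gene, fell by 0.72, both on the log2 scale. EGFR, a receptor tyrosine kinase that CEACAM1 can restrain, rose by 0.96 (adjusted p = 6.69e-06) and the integrin subunit gene ITGAV by 0.49. The list median was -0.02, against 0.01 over all genes. For oxygen with ATRA 7 passed, 2 higher and 5 lower, where 22.7% of all genes did, and PTPN6 fell by 0.75 (SE 0.24, adjusted p = 0.0249, edgeR). With ATRA in hyperoxia edgeR called 3 of the 17 and DESeq2 4, where edgeR called 2.21% of all genes. PTPN6 rose by 1.57 (SE 0.30, adjusted p = 0.00448, edgeR) and CALM3 by 0.50, EGFR fell by 0.44, and the median was 0.07. In normoxia with ATRA, edgeR and DESeq2 each called 0 of the 17, and 1 had an unadjusted p under 0.05. There edgeR called 1.25% of all genes.

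A further list held 28 genes for enzymes that build and attach the GPI anchor of CEACAM5, CEACAM6 and CEACAM7. For oxygen with vehicle edgeR and DESeq2 each called 0 of them and 3 had an unadjusted p under 0.05. There edgeR called 17.5% of all genes. For ATRA in hyperoxia each called 0 and 2 had an unadjusted p under 0.05, where edgeR called 2.21% of all genes. For oxygen with ATRA, where 22.7% of all genes were called, edgeR called 4 of the 28, a smaller share: PIGQ and PIGT rose by 0.95 and 0.36, and PIGK and PIGL fell by 0.75 and 0.68, on the log2 scale. The list medians were 0.07, 0.07 and 0.16 in these 3 comparisons.

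Other adhesion molecules of the immunoglobulin superfamily moved in both directions. Of 29 genes, 20 were tested, and for oxygen with vehicle 2 rose and 4 fell, with a median of -0.19, where 17.5% of all genes were called. For oxygen with ATRA 2 rose and 2 fell, with a median of -0.05, where 22.7% of all genes were called. For oxygen with vehicle F11R, a tight junction adhesion molecule, fell by 1.32 (SE 0.21, adjusted p = 9.23e-05, edgeR). In that comparison NECTIN2 fell by 0.68 and NECTIN4 rose by 4.27 (SE 1.07, adjusted p = 0.00709, edgeR). For oxygen with ATRA F11R differed by -0.01 (adjusted p = 0.972) and NECTIN4 rose by 4.42 (adjusted p = 0.000886). With ATRA in hyperoxia F11R rose by 1.04 (SE 0.19, adjusted p = 0.00354, edgeR) and BCAM, a laminin receptor, by 0.65. In that comparison 2 of the 20 rose and 0 fell, with a median of 0.21, where edgeR called 2.21% of all genes. For F11R the ATRA effect was larger in hyperoxia than in normoxia by 1.31 (SE 0.27, adjusted p = 0.0497, edgeR), just under the threshold. F11R was the 1 gene of the 20 called in that comparison, where edgeR called 0.14% of all genes. The value for CEACAM6, by which the set was chosen, was 1.35 (SE 0.25), given without a test. Of 6 genes for factors known to act at CEACAM promoters, edgeR called 2 for oxygen with vehicle, where 17.5% of all genes were called. IRF1 rose by 1.00 (adjusted p = 0.012) and HNF4A fell by 0.75 (adjusted p = 0.0342, edgeR). For oxygen with ATRA 1 of the 6 was called, HNF4A falling by 0.62 (adjusted p = 0.0291, edgeR), where 22.7% of all genes were. With ATRA in hyperoxia edgeR and DESeq2 each called 0, with 1 at an unadjusted p under 0.05, where edgeR called 2.21% of all genes.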

How the data were processed

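RNA-seq libraries of A549 cells were prepared with a directional kit. The submitters' processing notes name Trimmomatic 0.38 for trimming, HISAT2 and the build hg38 for alignment, and HTSeq for counting by gene. The authors deposited whole-number counts with no normalization. The annotation release, and how strand and overlapping genes were handled, are not given in the sources used here. Counting summary lines were left out of library sizes; reads in no feature were 48.6 to 55.3% and reads placed in several positions 7.83 to 8.91% of all those listed. Totals on genes ran from 2642377 to 5605072 per library.

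The counts were then fitted in R 4.3.3 with edgeR 4.0.16: filterByExpr (minimum count 10, minimum total 15), TMM normalization, the quasi-likelihood test and Benjamini-Hochberg adjustment over all genes tested. The 5 oxygen, ATRA and difference-of-effect comparisons used 10 libraries in 4 groups (14957 genes), and those with libraries without vehicle used 14 in 6 groups (15339 genes). A gene was called at an adjusted p under 0.05. Standard errors were the log2 fold change divided by the root of the test statistic, and 95% intervals used the t distribution of the test. Levels are TMM-scaled CPM, and correlations used log2 CPM with a prior count of 2. DESeq2 1.42.0, RLE size factors, no filter, other sets of libraries and leaving out each library were alternatives. Averaged effects and fits with 13 libraries were added after seeing the data. The scripts were tested on simulated data. No pair of replicates agreed within sampling noise (chi-square per degree of freedom 3.98 to 31.5), so each was counted as a library.

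Positions and promoters came from RefSeq for GRCh38.p14 and transcript lengths and windows from GENCODE. Promoter sequences were found for 4 members, and were aligned with Biopython 1.88. Members and gene lists were chosen with earlier results of these data known. Named beyond the members were, per list, at most 4 called genes with the smallest p for oxygen with vehicle and for ATRA in hyperoxia, the 8 or 3 genes most correlated with a member, and genes placed by position; ITGAV and the GPI genes were named after their values were seen. Some genes that these rules select are not reported here. Of 15 libraries, 1 whose labels name conflicting treatments was left out of every comparison.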

Additional observations from a re-analysis of the deposited data

How the results depend on the processing

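The CEACAM6 differences kept their sign under every alternative run. Averaging over the other factor, chosen after seeing the data, gave -2.91 for oxygen and 1.54 for ATRA. Leaving out each library in turn, CEACAM6 ran from -5.40 to -3.72 for oxygen without vehicle and from 0.032 to 1.68 for vehicle against no vehicle in hyperoxia. The number of other members called is small and moved with the setting. For oxygen with vehicle it was 1 without the filter and 2 with only the compared groups, with controls pooled over 13 libraries or with averaging, and 2 with averaging for oxygen with ATRA. For ATRA in hyperoxia it was 1 with DESeq2, without the filter and with averaging, and for ATRA in normoxia it was 0 with 14 or 13 libraries in 6 groups and with pooled controls. Leaving out 1 library it ran from 0 to 1 for oxygen with vehicle, oxygen with ATRA, ATRA in hyperoxia and ATRA in normoxia, and from 0 to 2 for vehicle against no vehicle in hyperoxia.

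Signs turned for members that were not called. CEACAM5 with ATRA in hyperoxia was 0.29 with pooled controls and 0.66 with averaging, and CEACAM19 with ATRA in normoxia was -0.15 with averaging. Leaving out 1 library, CEACAM1 ran from -1.01 to 0.078 for the difference of ATRA effects, from -1.34 to 1.73 for oxygen without vehicle and, for vehicle against no vehicle, from -0.69 to 2.0 in hyperoxia and -1.19 to 0.71 in normoxia. CEACAM5 ran from -5.57 to 0.74 for oxygen with vehicle, -1.54 to 4.77 for ATRA in hyperoxia, -3.29 to 3.01 for the difference of ATRA effects and -2.49 to 5.28 for vehicle against no vehicle in hyperoxia. CEACAM19 ran from -0.82 to 0.34 for ATRA in hyperoxia, -0.40 to 0.93 for ATRA in normoxia, -1.30 to 0.27 for the difference of ATRA effects and, for vehicle against no vehicle, -0.41 to 0.75 in hyperoxia and -0.80 to 0.52 in normoxia. The cause of these turns was not tested.

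No paired analysis was possible because the labels give no replicate number that links libraries across groups, and the numbers used here only name libraries. Where leaving out a library left 1 in a group, it was assumed to vary like the others. Depth limits CEACAM5 and CEACAM7, where 3 counts correspond to 0.528 to 1.14 CPM.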

Other observations

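The library that the labels put in no group held 4415705 counts on genes. It had 111 counts of CEACAM6, 34 of CEACAM1 and 120 of CEACAM19, and none of CEACAM5 or CEACAM7. As CPM of its own total, without further scaling, these are 25.1 for CEACAM6, 7.7 for CEACAM1 and 27.2 for CEACAM19, and LOC112268252 was at 4.08. On the same unscaled basis CEACAM6 ran from 18.6 to 29 CPM in hyperoxia with vehicle, from 7.74 to 22.2 without vehicle and from 91.8 to 137 with ATRA. In normoxia it ran from 280 to 309 CPM with vehicle, from 296 to 311 without vehicle and from 466 to 578 with ATRA. The set was chosen by CEACAM6, and the library was not assigned to a group from these values.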
